A study of Homo sapiens with 2 samples.

Results

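Histone genes of the HIST clusters were compared between MTAC-P and PC9, with 1 RNA-seq library for each line. MTAC-P is a human lung cancer line that was derived from PC9 and resists inhibitors of the EGFR tyrosine kinase (EGFR-TKI). PC9 is its parent, a lung adenocarcinoma line with an activating EGFR deletion. Neither line has a drug treatment in its labels, and both were grown in DMEM with serum. The series text speaks of triplicates, and whether each value column stands for 1 library or for several merged is not known, so each is treated here as 1 library with no replicate. All symbols starting with HIST1H, HIST2H, HIST3H or HIST4H were taken, 82 symbols on 96 transcript lines, out of 30843 symbols on 65535 lines. Of these, 23 reached an average of 1 FPKM across the pair of libraries (fragments scaled to transcript length and to mapped fragments) and were compared. The other 59 lay below that level.

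Histones are the proteins around which DNA is wound. H2A, H2B, H3 and H4 form the core of the nucleosome, and the linker histone H1 binds where DNA enters and leaves it. The HIST genes are mostly intron-poor copies that supply histones while DNA is replicated. Their messenger RNA usually ends in a conserved stem-loop, bound by the protein SLBP, in place of a poly(A) tail. Some HIST genes are known to give polyadenylated RNA as well, so the level seen for a HIST gene depends on how RNA was selected, and no source used here states that selection.

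The stem-loop is the sequence that sets these messengers apart, and it is shown here for 5 of the listed transcripts that hold it. The sequences are from GENCODE 29 transcripts (GRCh38), 5′ to 3′, with the stem-loop in capitals and its flanking bases in lower case. The coordinates are those of the capitals.
HIST1H2BD (chr6:26158587-26158602, plus strand): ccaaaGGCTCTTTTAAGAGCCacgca
HIST1H2AC (chr6:26124669-26124684, plus strand): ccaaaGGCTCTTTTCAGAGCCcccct
HIST1H4J (chr6:27824459-27824474, plus strand): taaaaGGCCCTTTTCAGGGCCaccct
HIST2H2AA4 by the tables, HIST2H2AA3 in GENCODE 29 (chr1:149842223-149842238, minus strand): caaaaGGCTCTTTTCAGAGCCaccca
HIST3H2A (chr1:228457369-228457384, minus strand): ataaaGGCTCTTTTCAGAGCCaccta
Over the 60 of 96 listed transcripts that GENCODE 29 contains, 4 forms of the stem-loop were found on the sense strand. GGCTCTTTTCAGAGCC was in 14 transcripts, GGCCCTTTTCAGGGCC in 4, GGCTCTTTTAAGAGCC in 4 and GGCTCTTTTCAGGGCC in 2. The models of HIST1H2BK and HIST1H1C cover 381 and 642 nt and hold none of these forms.

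The summed level of all HIST symbols was 390 FPKM in MTAC-P and 221 FPKM in PC9, a ratio of 1.76. HIST1H2BK, which encodes a core histone H2B, made up 66.5% of the HIST sum in MTAC-P and 49.1% in PC9. Without it the sums were 131 FPKM in MTAC-P and 113 FPKM in PC9, a ratio of 1.16. Without the 3 most abundant members, HIST1H2BK, HIST1H1C and HIST1H2BD, they were 79.4 FPKM in MTAC-P and 79.9 FPKM in PC9. The difference in the summed level thus lay in few genes. Of the 20 other genes compared, 13 had a higher value in MTAC-P and 7 a lower one. Their near-equal sums thus hold differences in both directions. In bulk libraries a different share of cells in S phase and a different amount of histone RNA per cell cannot be told apart. The whole tables summed to 685082 FPKM in MTAC-P and 693444 FPKM in PC9, and the number of reads behind the values is unknown.

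Differences per gene are log2 ratios, log2((MTAC-P + 1)/(PC9 + 1)), and a gene was counted as higher or lower at 2-fold or more on that scale. With 1 library per line no difference has a replicate check, and no p-value or error can be given. In MTAC-P, 4 of the 23 HIST genes (17.4%) stood 2-fold or more above PC9, against 3.48% of all 11435 genes compared. Another 2 (8.70%) stood 2-fold or more below, against 4.29% of all genes. In either direction 6 of the 23 passed 2-fold, against 7.77% of all genes. At 4-fold 0 HIST genes were higher and 1 was lower, against 0.778% and 0.743% of all genes. At 1.5-fold 8 were higher, against 8.96% of all genes, and 3 lower, against 11.2%. The median log2 ratio of the 23 was 0.25, with 15 above 0, while the median of all genes compared was -0.02 and 47.6% of them lay above 0. Counts this small were not tested. Of the 23 members 16 had a mean under 5 FPKM, and among all genes below that level 5.39% passed 2-fold upwards and 7.43% downwards. Among 555 other coding genes whose longest listed transcript was under 1000 nt, a length typical of histone genes, these shares were 5.77% and 7.39%.

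**Figure D1:**
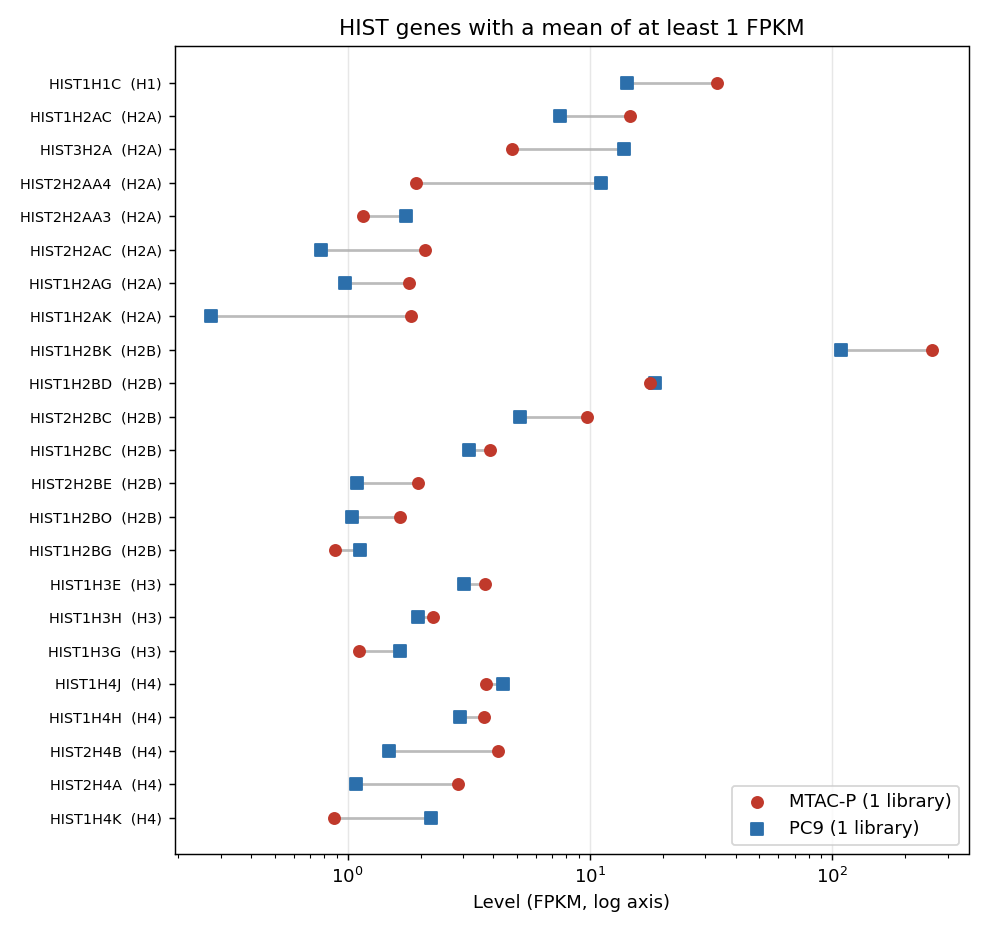
Level in FPKM (log axis) of the 23 HIST genes compared, ordered by histone type, with MTAC-P as circles and PC9 as squares, 1 library each. HIST1H2BK stands far above the other genes in both libraries, and most of the others lie between 1 and 20 FPKM.

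Linker histone genes were represented by HIST1H1C, which encodes histone H1.2 (chr6:26055787-26056428, minus strand). It stood at 33.6 FPKM in MTAC-P and 14.2 FPKM in PC9, a log2 ratio of 1.18, and was the second most abundant HIST gene. The other 6 H1 symbols were below a mean of 1 FPKM. The H1 genes outside the HIST clusters differed less: H1F0, a linker histone of slowly dividing and differentiated cells, stood at 40.7 FPKM in MTAC-P and 37.4 FPKM in PC9. H1FX, another variant, stood at 43.1 FPKM in MTAC-P and 53.6 FPKM in PC9 (log2 ratio -0.31).

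Among H2B genes HIST1H2BK (chr6:27146418-27146798, minus strand) was 1 of 7 compared and the 1 at least 2-fold higher. It stood at 259.7 FPKM in MTAC-P and 109 FPKM in PC9, a log2 ratio of 1.25. HIST1H2BD, the next most abundant H2B gene, stood at 17.8 FPKM in MTAC-P and 18.6 FPKM in PC9. HIST2H2BC, a pseudogene by the tables' biotype, stood at 9.69 FPKM in MTAC-P and 5.14 FPKM in PC9 (0.80). The other 4 lay between -0.17 for HIST1H2BG and 0.50 for HIST2H2BE, and the median of the type was 0.37.

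The H2A genes went both ways and held both members at least 2-fold lower. HIST2H2AA4 stood at 1.92 FPKM in MTAC-P and 11.2 FPKM in PC9, a log2 ratio of -2.06, the lowest of the 23. Its near-identical copy HIST2H2AA3 stood at 1.15 FPKM in MTAC-P and 1.74 FPKM in PC9 (-0.35). Reads cannot be placed firmly in such copies, so their separate values are uncertain, and the listed HIST2H2AA4 transcript bears the symbol HIST2H2AA3 in GENCODE 29. Summed, the pair had a log2 ratio of -1.77, still lower in MTAC-P. HIST3H2A, from a small separate cluster (chr1:228456979-228457873, minus strand), stood at 4.76 FPKM in MTAC-P and 13.8 FPKM in PC9 (-1.37, and -0.95 with a pseudocount of 5, under 2-fold).

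In the other direction, HIST1H2AK stood at 1.82 FPKM in MTAC-P and 0.272 FPKM in PC9 (1.15). Its mean of 1.05 FPKM was just above the minimum, and the number of reads behind it is unknown. With a pseudocount of 5 its log2 ratio was 0.37. HIST1H2AC stood at 14.7 FPKM in MTAC-P and 7.54 FPKM in PC9 (0.88), HIST2H2AC at 2.09 FPKM in MTAC-P and 0.774 FPKM in PC9 (0.80), and HIST1H2AG had a log2 ratio of 0.50. The 7 H2A genes had a median of 0.50 but a mean of -0.06. The median turned to -1.37 at a minimum mean of 5 FPKM and to -0.35 over symbols on 1 line only, and the H2A sum was lower in MTAC-P, at 31.3 FPKM against 39.3 FPKM in PC9.

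No H3 gene reached 2-fold. HIST1H3E stood at 3.70 FPKM in MTAC-P and 3.03 FPKM in PC9, HIST1H3H at 2.25 FPKM in MTAC-P and 1.96 FPKM in PC9, and HIST1H3G at 1.11 FPKM in MTAC-P and 1.65 FPKM in PC9. Of the 5 H4 genes compared 1 did, HIST2H4B, at 4.18 FPKM in MTAC-P and 1.49 FPKM in PC9 (1.06, and 0.50 with a pseudocount of 5). HIST2H4A, its near-identical copy, stood at 2.84 FPKM in MTAC-P and 1.08 FPKM in PC9 (0.89). Each of this pair has a transcript with the same value as the other's, 1.54 FPKM in MTAC-P and 0.357 FPKM in PC9, so they are not separate observations. The 3 H4 genes of the HIST1 cluster did not reach 2-fold: HIST1H4J 3.73 FPKM in MTAC-P and 4.39 FPKM in PC9, HIST1H4H 3.64 FPKM in MTAC-P and 2.91 FPKM in PC9, and HIST1H4K 0.876 FPKM in MTAC-P and 2.22 FPKM in PC9 (-0.78).

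**Figure D2:**
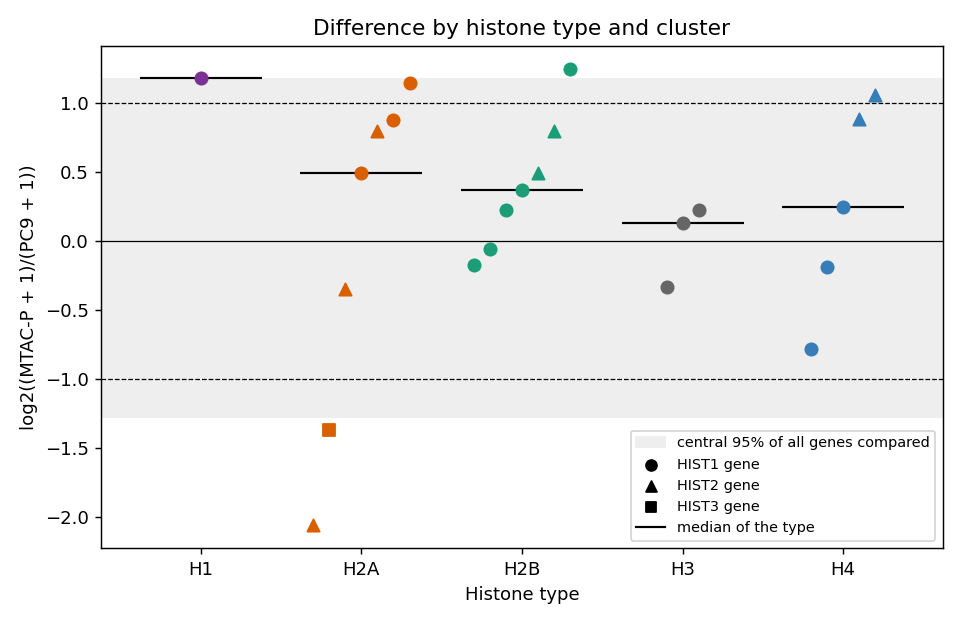
Log2 ratio of MTAC-P over PC9 (pseudocount 1) for the 23 HIST genes by histone type, with 1 symbol shape per cluster, a black line at the median of each type, dashed lines at 2-fold and a grey band for the central 95% of all genes compared. Most points lie inside the band, whose edges are at -1.27 and 1.17, HIST1H2BK lies above it, HIST1H1C lies just past its upper edge, and HIST2H2AA4 and HIST3H2A lie below it.

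The HIST1 cluster on chromosome 6 had 15 genes compared, with a median log2 ratio of 0.23. Of these 3 were at least 2-fold higher and 0 lower. The 18 other coding genes compared within 1 Mb of it had a median of 0.25, and none of them reached 2-fold. All 538 non-HIST genes compared on chromosome 6 had a median of -0.02. The HIST2 cluster on chromosome 1 had 7 genes compared, with a median of 0.80, 1 at least 2-fold higher and 1 lower. That median turned to -0.63 at a minimum mean of 5 FPKM, which left only HIST2H2AA4 (-2.06) and HIST2H2BC (0.80). It was 0.074 over symbols on 1 line only. Of 18 other coding genes compared within 1 Mb, 17 lay above 0, with a median of 0.47, and 2 (11.1%) were at least 2-fold higher. All 1095 non-HIST genes compared on chromosome 1 had a median of 0.17, and 4.84% of them were at least 2-fold higher. Whether the level of the surroundings has a part in the HIST2 values was not tested. HIST3 had 1 gene compared, HIST3H2A, and the 1 HIST4 gene, HIST4H4, stood at 0.394 FPKM in MTAC-P and 0.338 FPKM in PC9.

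Many H2A and H2B genes lie head to head with a shared upstream region, and 15 such pairs with starts at most 1000 nt apart were found among the 78 symbols that could be placed. In 3 pairs both genes were compared. HIST1H2AC and HIST1H2BC had log2 ratios of 0.88 and 0.23, and HIST2H2AC and HIST2H2BE 0.80 and 0.50. The third pair holds transcripts that the tables list as HIST2H2AA4 (-2.06) and HIST2H2BC (0.80), and GENCODE 29 names them HIST2H2AA3 and HIST2H2BD, so which genes these values belong to is uncertain. HIST1H2AH, the partner of the abundant HIST1H2BK, stood at only 0.336 FPKM in MTAC-P and 0.310 FPKM in PC9. HIST3H2BB, the partner of HIST3H2A, was listed at 0 in MTAC-P and stood at 0.329 FPKM in PC9. Levels of paired genes were unlike in these last 2 pairs.

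A symbol's value is the sum of its listed transcripts, and for HIST1H2BK most of the difference lay in 1 of 2. ENST00000356950, a single exon of 381 nt, stood at 129 FPKM in MTAC-P and 18.8 FPKM in PC9, a log2 ratio of 2.72. ENST00000396891, which GENCODE 29 does not contain, stood at 130 FPKM in MTAC-P and 89.9 FPKM in PC9 (0.53). Reads shared by transcripts of 1 gene are divided by the software, so the values of the parts are uncertain. Since values are scaled to transcript length, the total can also depend on that division, which was not tested.

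HIST1H2BD had nearly the same total in both libraries but opposite differences in its transcripts. ENST00000377777, a single exon of 496 nt that holds the stem-loop shown above with 39 nt after it, stood at 11.4 FPKM in MTAC-P and 6.84 FPKM in PC9 (0.66). ENST00000289316, spliced over 2 exons of 789 nt in all and without the stem-loop, stood at 6.38 FPKM in MTAC-P and 11.7 FPKM in PC9 (-0.79). Neither reached 2-fold. Both HIST1H2AC transcripts hold the stem-loop and run 1128 and 1114 nt beyond it, with a poly(A) signal near the end. They stood at 10.2 and 4.45 FPKM in MTAC-P, against 5.87 and 1.67 FPKM in PC9 (0.71 and 1.03).

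**Figure D3:**
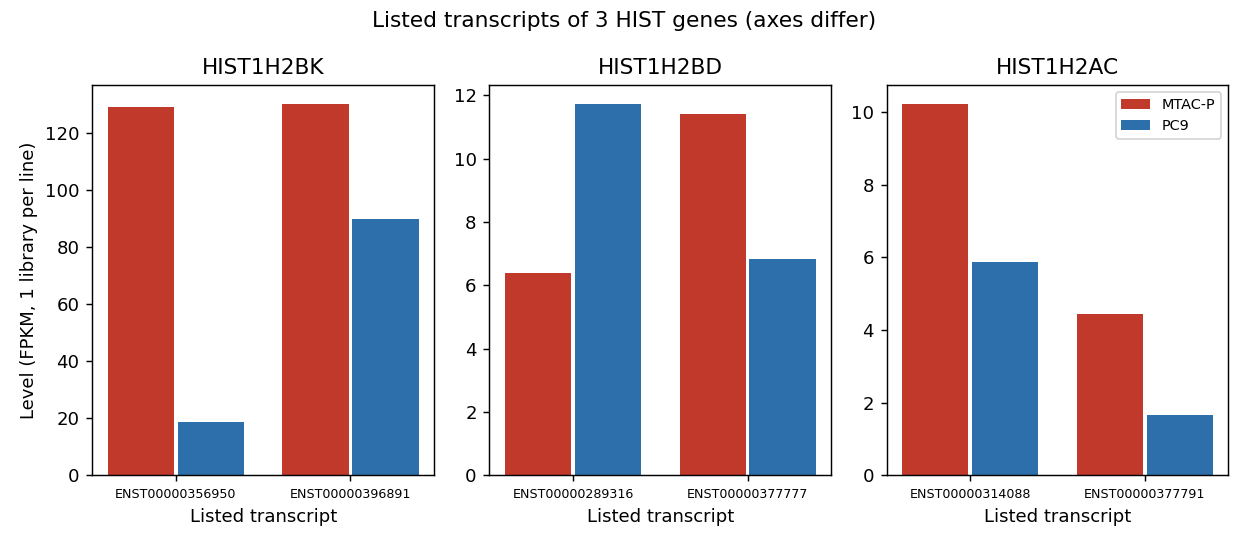
Level in FPKM of each listed transcript of the 3 HIST genes that have several listed transcripts and a mean of at least 5 FPKM, with MTAC-P left of PC9 in each pair of bars, 1 library each. The bars of ENST00000356950 (HIST1H2BK) differ most, and the HIST1H2BD transcripts differ in opposite directions.

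Among 25 HIST transcripts that averaged 1 FPKM or more, 4 passed 2-fold upwards in MTAC-P and 2 downwards, where 7.76% and 8.88% of all 19406 transcripts at that level did. In 14 of them the GENCODE 29 model could be read. In 4 models the stem-loop lay within 100 nt of the end. Of these, 3 had a poly(A) signal (the hexamer AATAAA or its common variant ATTAAA) in the last 50 nt. In HIST1H4J only 6 nt follow the stem-loop, so its hexamer lies before the stem-loop. Levels of the 4 summed to 26.7 FPKM in MTAC-P and 27.5 FPKM in PC9. Log2 ratios were above 0 for 2 of them, with a median of 0.24. HIST2H2AA4, at 1.92 FPKM in MTAC-P and 11.2 FPKM in PC9, weighed on that sum. In 6 models at least 100 nt followed the stem-loop, all 6 with such a signal. These summed to 25.4 FPKM in MTAC-P and 25.4 FPKM in PC9, a tie that hides differences in both directions. Of these 6, 5 had a log2 ratio above 0, and the median was 0.50. HIST3H2A went the other way, at 4.76 FPKM in MTAC-P and 13.8 FPKM in PC9. The other 4 models had no stem-loop, 2 of them with such a signal, and HIST1H2BK and HIST1H1C were among them. They summed to 173 FPKM in MTAC-P and 48.0 FPKM in PC9, with 3 of 4 above 0 and a median log2 ratio of 0.71. The last group says nothing of how those messengers end, since those models of HIST1H2BK and HIST1H1C stop close to the coding sequence.

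A list of 10 HIST genes reported to give polyadenylated RNA held the most abundant members. It was chosen with earlier results of these data known, so its shares are no independent check. Of the 8 compared, HIST1H2BK and HIST1H1C were at least 2-fold higher (25%) and HIST3H2A at least 2-fold lower (12.5%), against 3.48% and 4.29% of all genes, and the median log2 ratio was 0.36. The list summed to 338 FPKM in MTAC-P and 169 FPKM in PC9, and without HIST1H2BK to 78.2 FPKM in MTAC-P and 60.6 FPKM in PC9. The 72 other HIST symbols summed to 52.5 FPKM in MTAC-P and 52.1 FPKM in PC9. Of 15 compared, 2 were at least 2-fold higher (13.3%) and 1 lower (6.67%), and the median was 0.25. Log2 ratios were above 0 for 10 of these 15 and for 5 of the 8 in the list. The others include HIST2H2AA4, at 1.92 FPKM in MTAC-P and 11.2 FPKM in PC9, whose near-identical copy HIST2H2AA3 is in the list. Both sums thus depend on how that pair is split.

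Promoters are shown for the 2 most abundant members that were higher and for HIST3H2A, which was lower. They run from 250 bases before to 50 bases after the first listed start, from RefSeq (GRCh38.p14), 5′ to 3′ on the gene's strand. Capitals mark matches on either strand to 4 motifs. The motif of the core promoter box was TATAAA, the box bound by NF-Y was CCAAT, the octamer bound by OCT1 was ATTTGCAT and the H1 box was AAACACA. Matches to the core promoter box on opposite strands can overlap.
HIST1H2BK (chr6:27146809-27147108, minus strand): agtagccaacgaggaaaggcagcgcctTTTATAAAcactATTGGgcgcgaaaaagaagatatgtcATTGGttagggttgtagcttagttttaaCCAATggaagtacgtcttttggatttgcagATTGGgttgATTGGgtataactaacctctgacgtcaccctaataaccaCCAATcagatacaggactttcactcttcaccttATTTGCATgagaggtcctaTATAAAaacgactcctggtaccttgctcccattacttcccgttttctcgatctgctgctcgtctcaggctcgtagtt
HIST1H1C (chr6:26056421-26056720, minus strand): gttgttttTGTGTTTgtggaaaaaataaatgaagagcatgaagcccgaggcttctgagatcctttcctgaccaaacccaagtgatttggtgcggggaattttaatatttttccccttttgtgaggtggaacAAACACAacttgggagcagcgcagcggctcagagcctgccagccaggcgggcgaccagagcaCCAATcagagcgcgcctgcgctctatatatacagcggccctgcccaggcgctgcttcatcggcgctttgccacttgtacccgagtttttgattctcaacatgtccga
HIST3H2A (chr1:228457824-228458123, minus strand): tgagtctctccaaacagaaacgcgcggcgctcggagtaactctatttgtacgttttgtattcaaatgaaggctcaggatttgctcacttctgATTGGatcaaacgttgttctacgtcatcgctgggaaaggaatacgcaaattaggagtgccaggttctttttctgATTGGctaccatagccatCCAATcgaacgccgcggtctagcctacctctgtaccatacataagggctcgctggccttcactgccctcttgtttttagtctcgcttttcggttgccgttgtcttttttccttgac
The HIST1H2BK window held 6 NF-Y boxes, 3 core promoter boxes and 1 octamer. The HIST1H1C window held 2 H1 boxes and 1 NF-Y box. The HIST3H2A window held 3 NF-Y boxes and none of the others.

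RefSeq promoters were matched for 59 of the 82 symbols. The NF-Y box was in 83.1% of them and in 35.7% of all 27305 promoters. By type it was in all 6 H1, 16 H2A, 13 H2B and 11 H3 promoters but in 3 of 13 H4 promoters. The octamer was in 11 of 16 H2A and 9 of 13 H2B promoters, in 1 of 11 H3 promoters (HIST1H3D, whose window is the same as that of HIST1H2AD), in no H1 or H4 promoter and in 1.80% of all promoters. The H1 box was in 6 of 6 H1 promoters and 5.76% of all, and the core promoter box in 67.8% of HIST promoters and 12.0% of all. Head-to-head H2A and H2B genes can share most of a window, as HIST1H2AA and HIST1H2BA do, so the same match can count for both types. These are matches of letters in 300 bases, not sites shown to be bound.

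The 59 HIST symbols below a mean of 1 FPKM summed to 10.8 FPKM in MTAC-P and 13.3 FPKM in PC9. Of these, 25 were listed at 0 in both libraries, 10 in MTAC-P alone and 3 in PC9 alone, and an exact 0 can be a failed estimate. Just below the minimum lay HIST1H4A, at 0.498 FPKM in MTAC-P and 1.38 FPKM in PC9, and HIST1H3D, at 1.06 FPKM in MTAC-P and 0.783 FPKM in PC9. Just above it lay HIST1H2BG, at 0.887 FPKM in MTAC-P and 1.13 FPKM in PC9. Of 4 HIST genes known from testis, HIST3H3 was the highest at 0.350 FPKM in MTAC-P and 0.614 FPKM in PC9, and HIST1H2AA and HIST1H2BA were listed at 0 in both.

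Of 13 genes compared for histones expressed outside replication, 12 lay within 2-fold, and the median level was 40.7 FPKM in both libraries, against 2.84 FPKM in MTAC-P and 2.22 FPKM in PC9 for the 23 HIST genes. H2AFZ, which encodes the variant H2A.Z found at promoters, stood at 269 FPKM in MTAC-P and 242 FPKM in PC9. H3F3A, 1 of the genes of the replacement histone H3.3, stood at 138 FPKM in MTAC-P and 147 FPKM in PC9, and H3F3B, another, at 51.1 FPKM in MTAC-P and 40.7 FPKM in PC9. H2AFY2, a macroH2A gene, was the 1 at least 2-fold lower (7.69%, against 4.29% of all genes), at 2.30 FPKM in MTAC-P and 7.65 FPKM in PC9 (-1.39). None was higher by as much. H2AFX, whose protein is phosphorylated at DNA breaks, stood at 7.44 FPKM in MTAC-P and 14.8 FPKM in PC9 (-0.91). The median log2 ratio was 0.01.

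Genes that serve histone messengers, histone transcription and DNA replication showed no difference of 2-fold. Among 24 genes of histone mRNA processing and decay the median log2 ratio was 0.07. SLBP, the stem-loop binding protein, stood at 43.3 FPKM in MTAC-P and 44.0 FPKM in PC9, and SNRPE, a shared protein of spliceosomal and histone-processing particles, at 1114 FPKM in MTAC-P and 925 FPKM in PC9. CSTF2, a cleavage factor, was furthest up (33.3 FPKM in MTAC-P and 17.9 FPKM in PC9, 0.86). Among 17 genes of histone gene transcription the median was -0.04, with NPAT, the coactivator at histone loci, at 4.79 FPKM in MTAC-P and 4.43 FPKM in PC9.

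The 26 histone chaperones had a median of 0.09, with NASP, which carries H3 and H4, at 31.1 FPKM in MTAC-P and 52.7 FPKM in PC9 (-0.74) and DAXX, a chaperone of H3.3, at 20.7 FPKM in MTAC-P and 11.7 FPKM in PC9 (0.77). The 31 DNA replication genes had a median of 0.08, with PCNA, the sliding clamp, at 459 FPKM in MTAC-P and 423 FPKM in PC9. The 20 genes of G2 and mitosis had a median of -0.16, with UBE2C at 494 FPKM in MTAC-P and 499 FPKM in PC9.

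Both libraries held the epithelial markers of the labelled lines, such as KRT18 at 2720 FPKM in MTAC-P and 2329 FPKM in PC9 and EPCAM at 156 FPKM in MTAC-P and 161 FPKM in PC9. The lung lineage factor NKX2-1 was listed at 0 in MTAC-P and stood at 0.0787 FPKM in PC9. The 4 fibroblast markers summed to 1.88 FPKM in MTAC-P and 1.74 FPKM in PC9. Of the endothelial markers CDH5 stood at 4.13 FPKM in MTAC-P and 3.34 FPKM in PC9 and VWF at 0.0494 FPKM in MTAC-P and 0.0584 FPKM in PC9. The erythroid HBA1 and HBB summed to 0.191 FPKM in MTAC-P and 0.302 FPKM in PC9. The 13 mitochondrially encoded symbols, a sign of RNA composition, took 16.9% of the sum in MTAC-P and 19.4% in PC9. With both libraries scaled to a common sum without them, the ratio of HIST sums was 1.73, and the log2 ratios were 1.23 for HIST1H2BK and 1.18 for HIST1H1C.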

How the data were processed

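The submitters' processing notes name Trim Galore, TopHat, Cufflinks and build hg38 and give no versions. The authors deposited 1 value per transcript and library, taken here as FPKM since Cufflinks is named; the tables do not name the unit and hold no counts, so depth is unknown. The annotation release, RNA selection and strandedness are not given in the sources used here, and the series text speaks of triplicates while each line has 1 value column. Each library was assigned by the sample record that holds it.

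Values were summed per symbol (python 3.11.15, pandas 2.3.3, numpy 2.4.6) and compared as log2((MTAC-P + 1)/(PC9 + 1)) at a mean of at least 1 FPKM. No test was possible with 1 library per line. Each table holds 65535 transcript lines, and 8 of the 90 HIST symbols in GENCODE 29 were not analysed here. Coordinates and transcript sequences came from GENCODE 29 (GRCh38, the assembly that hg38 names), and 57 of 78 placed symbols were placed by a listed transcript, the others by symbol. Stem-loop and motif matches were exact. Among members compared, overlap with other genes was found for the HIST1H2BD transcript ENST00000289316. It overlaps the antisense gene AL353759.1 on the other strand and the processed pseudogene LARP1P1 on the same strand. Listed transcripts that GENCODE 29 does not contain were not searched for overlap. All HIST symbols with a mean of at least 1 could be named, with those at 2-fold always named, and from other lists those at 2-fold, the most abundant, 9 genes fixed by name and a few chosen after their values were seen. The members and lists were chosen with earlier results of these data known. Alternatives changed the pseudocount, scaling, minimum mean, fold, lines and biotypes used, and, added after seeing the data, near-identical copies and HIST1H2BK. The leukocyte marker list is not reported here.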

Additional observations from a re-analysis of the deposited data

How the results depend on the processing

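With a pseudocount of 5 in place of 1, 2 of 23 HIST genes were at least 2-fold higher and 1 lower. The shares of all genes were then 1.22% and 1.26%. Medians were 0.13 for all HIST genes, 0.12 for HIST1, 0.30 for HIST2, 0.18 for H2A, 0.14 for H2B, 0.059 for H3 and 0.13 for H4. With 0.1, H2A stood at 0.81 and H2B at 0.61. A common sum raises all values and so also acts as a lower minimum. H1 then turned to -0.20, with H2A at 0.28 and H3 at 0.21. With a common sum without mitochondrially encoded genes H1 turned to -0.32, with H2A at 0.27 and H4 at 0.012. HIST1H1C, the 1 H1 gene compared in the main setting, stood at 1.22 and 1.18 in these settings. H1 turned because the pseudogene HIST1H1PS1 passed the minimum, at 0 in MTAC-P and 1.42 FPKM in PC9 before scaling. With no minimum the medians were 0.028 over all 57 genes above 0, 0.032 for HIST1, 0.27 for HIST2, 0.024 for H1, 0.13 for H2A, -0.059 for H3 (turned) and 0.036 for H4. At a mean of at least 5, 7 genes were left, 2 of them higher and 2 lower, against 2.62% and 2.86% of all genes. Medians were 0.80 for all, 1.03 for HIST1 and 0.80 for H2B, and those of HIST2 (-0.63) and H2A (-1.37) turned. With symbols on 1 line only, which leaves out HIST1H2BK, 15 HIST genes were compared. Of these, 2 were higher and 2 lower, against 4.48% and 5.27% of all genes. The ratio of sums was 1.04, the median of all 0.13 and of HIST2 0.074, and H2A (-0.35) and H4 (-0.48) turned. At 4-fold, 0 were higher and 1 lower (0.778% and 0.743% of all genes), and at 1.5-fold 8 were higher (8.96% of all). With near-identical copies summed H4 stood at 0.029, and without HIST1H2BK the ratio of sums was 1.16. Beyond the different sets of genes, no cause was tested. Single HIST genes had 225 such values: 215 were on the main side of 2-fold, 3 had dropped below (HIST1H2AK, HIST2H4B and HIST3H2A, all with a pseudocount of 5), 7 had passed, and no gene at 2-fold turned its sign. HIST1H2BK and HIST1H1C stayed at least 2-fold higher in every alternative that kept them. No paired analysis was possible because there is 1 library for each line, so no replicate could be left out either. Depth is unknown, so low values have no known precision.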
